A study of Mus musculus with 4 samples.

Results

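The subject is the Wnt signalling set of 61 genes on the array: 19 Wnt ligands, 14 receptors and co-receptors, 9 genes of the R-spondin arm, 11 secreted antagonists and 8 intracellular effectors. Members were chosen by gene name from 24775 named genes, and 99 of 56601 probes belong to them. Each gene is represented by its brightest probe over the 4 arrays, and 30 members have more than 1 probe. Outbred ICR mouse embryos gave the RNA, which was pooled by tissue, and each pool was read once on a single-colour Agilent array after Cy3 labelling. The pools were MMA, medial mandibular arch of 12 embryos at E9.5; LLS, the lingual swellings that form the tongue, from 4 embryos at E11.5; LMA, lateral mandibular arch, also from 4 embryos at E11.5; and T, medial tongue of 4 embryos at E14.5. No embryo carried a mutation or received an agent according to the labels, and every pool is whole dissected tissue rather than sorted cells. With 1 array per tissue there is no test between tissues, and no difference has a replicate check, so differences are counted by size.

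Wnt proteins are lipid-modified secreted signals that bind Frizzled receptors together with the co-receptors Lrp5 and Lrp6, which stabilises beta-catenin and lets it act with Lef and Tcf factors on target genes. R-spondins bind Lgr receptors and take the ubiquitin ligases Rnf43 and Znrf3 away from Frizzleds, which raises the response to Wnts, whereas Dkk, Sfrp, Wif1 and Notum proteins act against Wnt signals outside the cell. In the jaw and tongue the pathway is known for its part in arch outgrowth, facial fusion, tooth buds and taste papillae, and a branch through Wnt5a and Ror2 acts without beta-catenin on cell polarity and movement.

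Signals below are processed intensities scaled so that the 75th percentile of every array is 467.5, and a difference is the log2 signal of the first tissue minus that of the second, where 1 means 2-fold. Between 57.0% and 62.9% of the 59305 non-control spots were well above background, and 0 were saturated. The lowest signal well above background ranged over the arrays from 18.6 in LMA to 25.4 in T. A dim value, one not well above background, was raised to that limit where it lay below it, and the difference is then called a bound. A bound is a lower limit of size under this processing only, and so is a fold given for it as at least some value. For Wnt3a in LLS minus LMA the bound was -1.17, with -0.36 under another background correction and -2.48 without the limit. Feature Extraction gave measured member differences a log2 error of 0.20 to 0.37, which covers the spot and not the pool. All 11 mesenchyme markers and all 12 epithelial markers were well above background in every tissue, and all 11 skeletal muscle markers were so in T. The extraction text of the labels names cerebellum, and 3 to 4 of 8 cerebellar markers were well above background per array. Gabra6, Atoh1, Neurod1 and Calb1 were so on none, En2 in MMA and LMA, and Zic1, Pvalb and Pcp2 on all, the last at 1439.5 in LMA.

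Most of the pathway was detected in every tissue. Of the 61 members, 46 were well above background on all 4 arrays, 11 on some arrays and 4 on none. The 4 undetected genes were the ligands Wnt2b, Wnt8a and Wnt8b and the R-spondin Rspo4. Detected members numbered 50 in MMA, 50 in LLS and 54 in LMA, with 54 in T. Across the 4 tissues 28 of the 57 detected members (49.1%) spanned at least 4-fold, against 15.1% of 17554 detected genes, among them 9 of the antagonists and 9 of the ligands but 3 of the receptors and 1 of the effectors. By their brightest probes, a further 10 members spanned under 2-fold, from 1.15-fold to 1.94-fold. These were the co-receptors Lrp5 and Lrp6, the scaffold Axin1, the receptors Fzd3 and Fzd8, and the ligase Znrf3. Also among them were the deacylase Notum, the Dvl-binding Nkd2, the repressor Tcf7l1 and the ligand Wnt1. Another probe spanned over 2-fold for Nkd2 (253.5 in LLS, 748.9 in LMA) and for Fzd8 (29.5 in LLS, 65.3 in T).

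**Figure D1:**
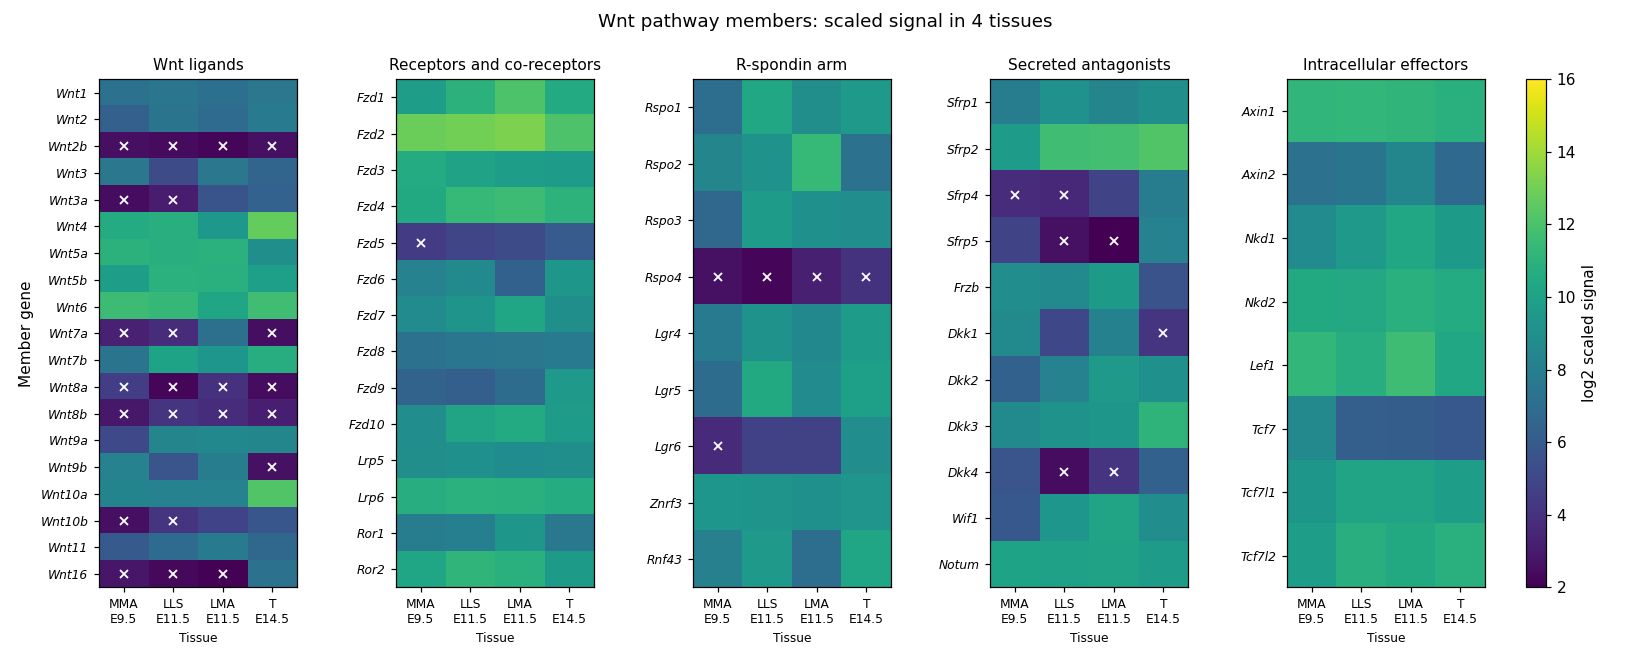
Log2 scaled signal (colour) of the 61 Wnt members (rows, by role) in the 4 tissues (columns, by stage), with 1 array per tissue and a white cross where the probe was not well above background. Colours compare tissues along a row and not genes with each other, and crosses fill all 4 columns for Wnt2b, Wnt8a, Wnt8b and Rspo4.

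At E11.5 the lingual swellings differed from the lateral arch in the levels of some ligands, receptors, antagonists and members of the R-spondin arm. The ligase gene Rnf43 was 5.54-fold higher in LLS, the receptor gene Fzd6 5.02-fold, the R-spondin receptor gene Lgr5 3.28-fold and the R-spondin gene Rspo1 2.78-fold. The antagonist gene Dkk1 was 8.79-fold lower in LLS, the ligand genes Wnt3 and Wnt9b 5.13-fold and 4.50-fold lower, and Rspo2 4.6-fold lower. Normexp background correction is a different model of the background, run with an offset of 50 added to every signal. The offset by itself makes differences of dim probes smaller. With normexp Dkk1 was at -1.88, Wnt3 at -1.22, Wnt9b at -1.26 and Fzd6 at 1.73, each smaller by over 1.5 times in fold. Of 54 members compared, 16 (29.6%) were at least 2-fold apart, against a background of 6.61% of 16668 genes compared. Of these, 6 (11.1%) were at least 2-fold higher in LLS, against 3.72% of genes, and 10 (18.5%) were lower, against 2.89%. The median difference was -0.11 for the members and 0.00 for all genes. Because the pools are bulk tissue, fewer cells of a type and less RNA per cell cannot be told apart here or in any other difference.

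The probes of Dkk1 (chr19:30620529-30620588), Rnf43 (chr11:87548944-87549003), Lgr5 (chr10:114887403-114887462) and Rspo2 (chr15:42852727-42852786) are placed on build mm9 by the files. Among ligands, Wnt4 gave 1838 in LLS and 704 in LMA, a difference of 1.38. Wnt6, a ligand known from surface epithelia, gave 2609.6 in LLS and 1219.6 in LMA, a difference of 1.1. Its signals in the other tissues were 3103 in MMA and 3402 in T. These were the 2 ligands at least 2-fold higher in LLS, and both had their lowest signal in LMA and their highest in T. Wnt7a gave 142 in LMA and was not well above background in any other tissue, with 9.9 in MMA, 13.9 in LLS and 5.8 in T. It was therefore at least 6.49-fold lower in LLS than in LMA, and its other probe gave at least 2-fold as well (a bound of -1.19). Wnt3a, a ligand best known from the tail bud, was at least 2.25-fold lower in LLS, where it was dim, against 49.2 in LMA. With normexp the differences of Wnt7a (-1.25) and Wnt3a (-0.36) were smaller. The beta-catenin-independent ligands Wnt5a (-0.07) and Wnt5b (0.04) lay close to 0 in this comparison.

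Wnt3, Wnt9b and Dkk1 were the 3 members at least 2-fold lower in LLS than in LMA and also at least 2-fold lower in LLS than in MMA. Wnt3 and Wnt9b are known from facial clefting, and Dkk1 binds Lrp5 and Lrp6 and is known from head formation. Dkk1 gave 401 in MMA, 32.7 in LLS and 288 in LMA, with 17.3 in T, the last not well above background. Wnt3 gave 186 in MMA, 36.1 in LLS and 186 in LMA, with 96.1 in T. Wnt9b gave 291 in MMA, 52.5 in LLS and 236 in LMA, with 6.1 in T, the last again dim. All 3 genes thus had their 2 highest signals in the mandibular arch pools, and in T Wnt3 alone of them was well above background. Wnt9b and Wnt3 are direct neighbours on chromosome 11, with 0 protein-coding genes between them in the RefSeq table.

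The promoters of these 3 genes are shown because the genes shared this pattern, a grouping made after their values were seen. Each is the RefSeq window of build GRCm38.p6 from 250 bases before to 50 after the start, written 5′ to 3′ on the strand of the gene. They lie at chr19:30549447-30549746 (minus strand) for Dkk1, chr11:103773925-103774224 (plus strand) for Wnt3 and chr11:103749772-103750071 (minus strand) for Wnt9b. Capitals mark the TCF/LEF core letters CTTTG followed by AT, AA, TT or TA, searched on both strands with overlaps allowed.
Dkk1: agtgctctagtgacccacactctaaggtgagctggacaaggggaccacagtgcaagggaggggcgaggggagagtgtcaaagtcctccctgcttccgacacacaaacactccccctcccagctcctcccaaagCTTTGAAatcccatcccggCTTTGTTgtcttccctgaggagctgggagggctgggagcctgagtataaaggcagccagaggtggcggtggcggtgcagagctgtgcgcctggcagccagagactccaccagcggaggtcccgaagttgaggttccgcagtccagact
Wnt3: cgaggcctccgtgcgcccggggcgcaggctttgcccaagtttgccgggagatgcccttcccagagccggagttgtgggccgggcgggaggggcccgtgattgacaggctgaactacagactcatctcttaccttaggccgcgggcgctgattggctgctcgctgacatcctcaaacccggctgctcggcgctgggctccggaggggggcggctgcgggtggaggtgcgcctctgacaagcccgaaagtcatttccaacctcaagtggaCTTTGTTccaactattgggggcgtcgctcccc
Wnt9b: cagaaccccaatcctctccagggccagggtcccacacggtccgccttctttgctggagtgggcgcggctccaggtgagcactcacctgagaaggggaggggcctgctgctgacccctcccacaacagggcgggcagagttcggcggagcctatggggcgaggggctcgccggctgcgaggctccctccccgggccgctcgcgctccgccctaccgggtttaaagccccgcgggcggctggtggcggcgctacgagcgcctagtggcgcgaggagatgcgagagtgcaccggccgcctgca
The Dkk1 window held 2 matches, at position 134 for the first, the Wnt3 window held 1, at position 269, and the Wnt9b window held 0. For comparison, 16.9% of all 32851 windows held at least 1 match, and so did 7 of the 50 windows (14.0%) found for 41 members, so a match is a description of these letters only.

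Receptors parted as well. Fzd6, a Frizzled known for planar polarity and hair orientation, gave 414 in LLS and 82.5 in LMA, and its other signals were 291 in MMA and 676 in T. Ror1, a tyrosine kinase receptor of Wnt5a, gave 262 in LLS and 687 in LMA, with 245 in MMA and 195 in T. Fzd1 gave 2018 in LLS and 4312 in LMA, beside 927 in MMA and 1533 in T. Fzd7 gave 596 in LLS and 1220.3 in LMA, beside 436 in MMA and 509 in T. Fzd6 was therefore lowest in LMA, whereas Fzd1, Fzd7 and Ror1 were highest there. The fold of Ror1 rests on its brightest probe, since the other gave a bound of -0.98.

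In the R-spondin arm, signals of different members went in opposite directions. Rspo2, an R-spondin needed for limb and craniofacial growth in mice, gave 571 in LLS and 2626 in LMA, with 333 in MMA and 148 in T. Its relative Rspo1 gave 1340.3 in LLS and 482 in LMA, with 132 in MMA and 737 in T. Lgr5, known as a stem cell marker in gut and taste epithelium, gave 1431 in LLS and 437 in LMA, with 122 in MMA and 971 in T. Rspo2 thus had its highest signal in LMA, whereas Rspo1 and Lgr5 had theirs in LLS. Rspo3 was also highest in LLS by its brightest probe, but its other probe was highest in T (197.1, against 51.8 in LLS). The other probe of Lgr5 gave 2.04 in LLS minus LMA, and that of Rspo2 a bound of -0.52, under 2-fold. Rnf43 gave 739.9 in LLS and 134 in LMA, with 272 in MMA and 1202 in T. Its difference was 1.63 with the mean over its probes, and its other probe was dim on all 4 arrays.

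By its brightest probe, none of the 8 effectors was at least 2-fold apart between LLS and LMA. Axin2 (-0.96), Lef1 (-0.90) and Nkd1 (-0.79) were all lower in LLS. Axin2 and Nkd1 are feedback inhibitors that the pathway itself induces, and Lef1 is both a nuclear partner of beta-catenin and a target. Axin2 gave 175 in LLS and 339 in LMA, Lef1 1699.6 in LLS and 3163 in LMA, and Nkd1 774 in LLS and 1338 in LMA. The other probe of Axin2 gave 37.7 in LLS and 75.3 in LMA. Nkd2 was at -0.47 by its brightest probe, but its other probe gave 253.5 in LLS and 748.9 in LMA, over 2-fold lower in LLS (-1.56). Among antagonists Dkk2 was at least 2-fold lower in LLS too (-1.37), and the Sfrp-related Frzb (-0.97) and Wif1 (-0.81) lay just inside that limit.

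**Figure D2:**
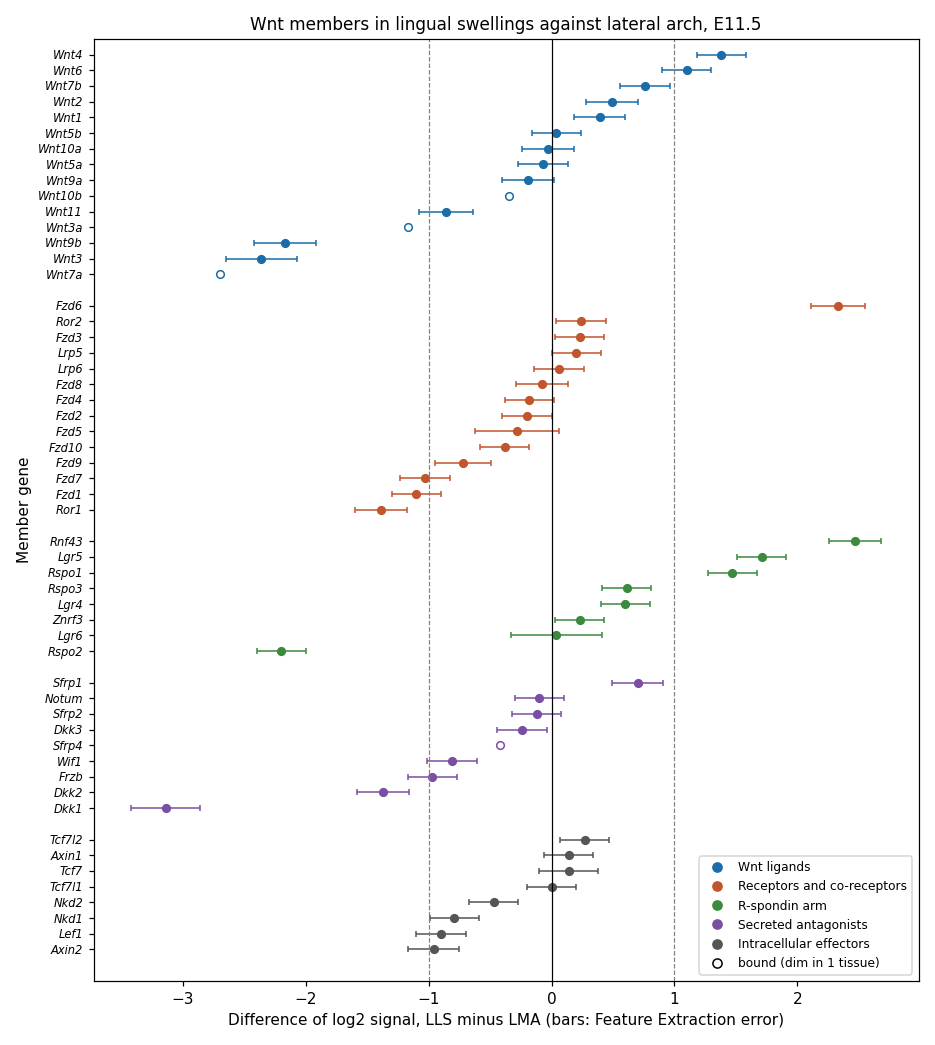
Difference of log2 signal, LLS minus LMA (x axis), for the 54 Wnt members compared (rows, by role), with bars for the Feature Extraction error, open points for bounds and dashed lines at 2-fold. Rnf43 (2.47) and Fzd6 (2.33) lie farthest right and Dkk1 (-3.14) farthest left, and no effector passes a dashed line by its brightest probe.

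Markers of other cell types moved with this comparison. The summed signal of the 12 epithelial markers was 45107 in LLS and 12597 in LMA, and 9 of them were at least 2-fold higher in LLS, with Krt8 at 3.38 and Epcam at 2.39. The 11 mesenchyme markers summed to 74440 in LLS and 109608 in LMA (1 higher, 2 lower), and the 11 skeletal muscle markers to 19968 in LLS and 37593 in LMA (7 of 10 lower). Endothelial markers summed to 4855 in LLS and 9865 in LMA (5 of 8 lower). The part of these cell types in the Wnt differences was not tested.

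Between stages, Rspo1, Rspo3 and Lgr5 of the R-spondin arm and the antagonists Wif1, Dkk2 and Sfrp2 were at least 2-fold higher in both E11.5 tissues than in MMA. In LLS minus MMA, 38.5% of 52 members were at least 2-fold apart, against 15.6% of 16111 genes: 15 (28.8%) were at least 2-fold higher in LLS, against 9.89% of genes, and 5 (9.62%) lower, against 5.73%. In LMA minus MMA, 46.4% of 56 members were apart, against 18.0% of 16673 genes: 20 (35.7%) were higher in LMA, against 10.7% of genes, and 6 (10.7%) lower, against 7.34%. The 2 comparisons share the MMA array, and both stage and dissected region differ. Member medians were 0.27 in LLS minus MMA and 0.54 in LMA minus MMA, beside -0.06 for all genes in each. Mesenchyme markers summed to 74440 in LLS, 109608 in LMA and 52572 in MMA. Of these 11 markers, 6 exceeded MMA by 2-fold or more in LLS, and 8 did so in LMA. Prrx2 alone lay 2-fold or more below MMA, at -2.83 in LLS minus MMA and -1.41 in LMA minus MMA. Skeletal muscle markers were higher for 7 of 10 in LLS and 9 of 10 in LMA, with medians of 3.53 and 4.90, and macrophage markers for 4 of 7 and 5 of 7. The part of these cell types was not tested.

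Antagonists were among the higher genes. Wif1, which binds Wnt proteins directly, gave 58.1 in MMA, 647 in LLS and 1136 in LMA, with 474 in T. Sfrp2, a Frizzled-related protein of arch mesenchyme, gave 855 in MMA, 3393 in LLS and 3676 in LMA, with 4709.9 in T. Dkk2 gave 80.9 in MMA, 299 in LLS and 775 in LMA, with 523 in T. Each of the 3 was lowest in MMA, by 8.15-fold, 3.97-fold and 3.70-fold against the next lowest tissue. Sfrp1 was 2.17-fold higher in LLS than in MMA (1.12) but 1.34-fold in LMA (0.42). Dkk4, an antagonist of ectodermal placodes, ran the other way, with 50.8 in MMA, dim signals of 5.6 in LLS and 16.9 in LMA, and 82.8 in T. Its differences were bounds of -1.22 in LLS minus MMA and -1.45 in LMA minus MMA, and its other probe was dim on all 4 arrays. With normexp, LLS minus MMA was 2.43 for Wif1, 1.27 for Dkk2, 0.94 for Sfrp1 and -0.55 for Dkk4, and LMA minus MMA was 3.23 for Wif1, 2.45 for Dkk2 and -0.69 for Dkk4.

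Some ligands and R-spondins were also lowest in MMA. In LLS minus MMA 4 of 12 ligands (33.3%) were higher and 2 (16.7%) lower, against 9.89% and 5.73% of all genes. In LMA minus MMA 6 of 15 (40.0%) were higher and 2 (13.3%) lower, against 10.7% and 7.34% of all genes. Wnt9a, known from joints and cartilage, gave 33.7 in MMA, 330.4 in LLS and 378 in LMA, with 338 in T. Wnt7b, a ligand of lung and skin epithelium, gave 167 in MMA, 1099.9 in LLS and 649 in LMA, with 1681 in T. Rspo3 gave 102 in MMA, 809.9 in LLS and 529 in LMA, with 463 in T. Wnt9a, Wnt7b and Rspo3, together with Rspo1 and Lgr5, therefore all had their lowest signal in MMA. Rspo1 was 10.2-fold higher in LLS than in MMA (3.34), and 3.66-fold in LMA (1.87). Lgr5 was 11.7-fold higher in LLS (3.55) and 3.58-fold in LMA (1.84). Wnt5b was also higher in each of them, by 1.18 in LLS and 1.13 in LMA. By its other probe Rspo3 was higher in LMA by a bound of 0.32, under 2-fold. With normexp Wnt9a was at 1.87 in LLS minus MMA and 2.06 in LMA minus MMA, and Lgr5 at 2.94 in LLS minus MMA.

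Some members were at least 2-fold apart from MMA in LMA and not in LLS. Rspo2 was 7.89-fold higher in LMA than in MMA (2.98) and 1.72-fold higher in LLS (0.78), and the LMA difference was 2.27 with the mean over its probes and a bound of 0.35 by the dimmer probe. Wnt11, a ligand of cell movement, was 1.79 higher in LMA and 0.93 higher in LLS. Nkd1 was 1.63 higher in LMA and 0.84 in LLS, and Axin2 1.16 higher in LMA and 0.21 in LLS. Lower in LMA than in MMA were Fzd6 (-1.82), Wnt6 (-1.35) and Wnt4 (-1.13), which were at 0.51, -0.25 and 0.25 in LLS minus MMA. Rnf43, unlike these, was at least 2-fold apart from MMA in both, lower in LMA (-1.03) and higher in LLS (1.44). With the mean over its probes both were under 2-fold (-0.73 and 0.90), and its other probe was dim on all 4 arrays. With normexp background correction, LMA minus MMA was also under 2-fold for Wnt11 (0.98), Axin2 (0.89) and Rnf43 (-0.77). Beside Fzd6, Wnt6, Wnt4 and Rnf43, epithelial markers summed to 12597 in LMA and 68735 in MMA. Of these 12 markers, 8 were at least 2-fold lower in LMA and 2 higher, Krt5 (5.69) and Krt15 (1.26). The part of epithelial cells was not tested.

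Tcf7, which encodes a partner of beta-catenin also known as Tcf1, was the member set apart as high in MMA. It gave 387 in MMA, 76.6 in LLS and 69.7 in LMA, with 57.7 in T. Its signals in the other tissues were 5.06-fold lower or more, and the next brightest probe gave -2.31 in LLS minus MMA. With normexp Tcf7 was at -1.60 in LLS minus MMA and -1.72 in LMA minus MMA. The other factors of that family were not lower in LLS than in MMA by 2-fold, with Lef1 at -0.53, Tcf7l1 at 0.79 and Tcf7l2 at 0.90.

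In the tongue at E14.5, the ligand gene Wnt10a was 15.9-fold higher in T than in LLS, the R-spondin receptor gene Lgr6 17.1-fold, the receptor gene Fzd9 9.85-fold, and the antagonist genes Sfrp5 and Sfrp4 at least 13.5-fold and at least 10.6-fold. Frzb was 8.38-fold lower in T, Rspo2 3.85-fold and Wnt5a 3.69-fold. With normexp the log2 differences were smaller by over 1.5 times in fold for Lgr6 (2.51), Fzd9 (2.5), Sfrp5 (2.08), Sfrp4 (1.89) and Frzb (-2.06). With the mean over probes Lgr6 was at 2.80 and Rspo2 at -1.17. Of 56 members compared, 33.9% were at least 2-fold apart, against 19.0% of 16708 genes: 13 (23.2%) were higher in T, against 13.0% of genes, and 6 (10.7%) lower, against 6.0%. Of the 13, 6 were bounds, and the median was -0.02 for members and -0.07 for all genes.

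Wnt10a, a ligand needed for teeth and tongue papillae in people and mice, gave 315 in MMA, 294 in LLS and 301 in LMA, with 4669 in T. Wnt4 gave 6714 in T and 1541 in MMA, beside the E11.5 signals given above. Wnt16 gave 149 in T and was dim elsewhere, with 7.3 in MMA, 5.0 in LLS and 4.2 in LMA. All 3 were set apart as high in T, Wnt16 by 6.07-fold or more above the next tissue. Wnt10b, a ligand of hair and taste placodes, was at least 2.46-fold higher in T (53.7) than in LLS, where it was dim. Wnt3a was at least 3.80-fold higher in T (83.1). With normexp Wnt16 was at 1.23, Wnt3a at 0.74 and Wnt10b at 0.46 in T minus LLS. With the mean over its probes Wnt10b was at 0.36, and its other probe was dim on all 4 arrays.

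Receptors and antagonists high in T differed in how far they were detected earlier. Fzd9 gave 87.5 in MMA, 75.7 in LLS and 125 in LMA, with 746 in T. Lgr6, known from skin and taste progenitors, gave 13.1 in MMA (dim), 27.4 in LLS, 26.7 in LMA and 469 in T. Its other probe gave 35.8 in T and was dim in the other tissues, a bound of 0.71 in T minus LLS. Sfrp5 gave 29.4 in MMA, 6.2 in LLS and 3.9 in LMA, with 296 in T, and the E11.5 values were dim. Sfrp4 gave 233 in T and 29.3 in LMA and was dim in MMA (13.5) and LLS (11.7). Dkk3, a Dickkopf relative whose effect on Wnt signals is less certain, gave 403 in MMA, 581 in LLS and 687 in LMA, with 2201 in T, and another probe gave 1.71 in T minus LLS.

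Frzb, which encodes a secreted Frizzled-related protein of cartilage, gave 474 in MMA, 401 in LLS and 784 in LMA, with 47.9 in T. Wnt5a, needed for outgrowth of face and limbs, gave 2037 in MMA, 1842 in LLS and 1932 in LMA, with 499 in T. These were the 2 members set apart as low in T. Other probes of Frzb (-3.15) and Wnt5a (-2.43 and a bound of -1.04) gave the same direction in T minus LLS. Ror2, the Wnt5a receptor, was 2.81-fold lower in T than in LLS (-1.49), and Wnt5b was 2.07-fold lower (-1.05). Wnt9b was lower by a bound of -1.04, which was -0.47 with normexp. No effector was 2-fold apart between T and LLS, and Lef1 (-0.38), Axin2 (-0.64) and Tcf7l2 (0.13) lay within that range.

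Beside this comparison, the 11 skeletal muscle markers summed to 297364 in T and 19968 in LLS, and all 11 were at least 2-fold higher in T. The 12 epithelial markers summed to 287418 in T and 45107 in LLS, with 4 higher and 2 lower. The keratin genes Krt15 (87051 in T, 11349.5 in LLS), Krt14 (82736 in T, 2018 in LLS) and Krt5 (81614 in T, 2015 in LLS) carried much of the sum in T. Mesenchyme markers summed to 123224 in T and 74440 in LLS, with 3 of 11 higher and 6 lower. The largest of these signals in T were Col1a2 (42476 in T, 30016 in LLS) and Dcn (30614 in T, 2189 in LLS). Primitive erythroid markers summed to 42775 in T and 423410 in LLS, with 5 of 5 lower. The part of these cell types in the Wnt values was not tested.

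**Figure D3:**
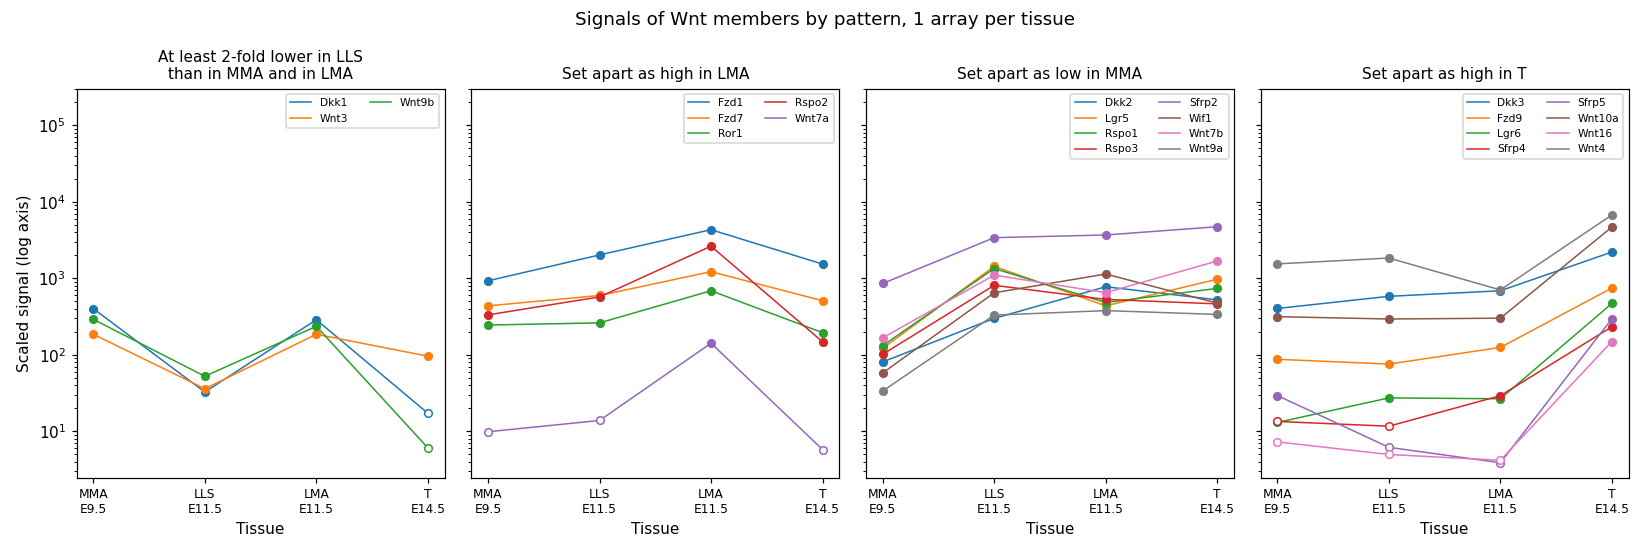
Scaled signal (log axis) of Wnt members in the 4 tissues, by pattern, with 1 array per tissue, open points where the probe was not well above background, and lines that only join points of a gene. The first panel holds Dkk1, Wnt3 and Wnt9b, with 32.7, 36.1 and 52.5 in LLS, and the last shows Wnt10a at 4669 in T.

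Over the whole span, T minus MMA, 55.4% of 56 members were at least 2-fold apart, against 32.6% of 16632 genes: 25 (44.6%) were higher in T, against 18.6%, and 6 (10.7%) lower, against 14.0%. The median difference was 0.73 for members and -0.09 for all genes. The R-spondin arm had 6 of 8 higher and 1 lower, with a median of 2.16. Secreted antagonists had 7 of 11 higher and 2 lower, with a median of 2.45. Receptors had 3 of 14 higher and 0 lower (0.39), and effectors 1 of 8 higher and 1 lower (-0.11). Beside these counts, skeletal muscle markers summed to 297364 in T and 1212 in MMA (11 of 11 higher) and primitive erythroid markers to 42775 in T and 520637 in MMA (5 of 5 lower). Epithelial markers summed to 287418 in T and 68735 in MMA (4 of 12 higher, 3 lower). Mesenchyme markers summed to 123224 in T and 52572 in MMA (5 of 11 higher, 3 lower). Macrophage markers were higher for 5 of 7 and lower for 1, Ptprc (-1.12), and Schwann cell markers were higher for 4 of 5. Neuron markers were higher for 4 of 6, and endothelial markers were lower for 4 of 8. The part of these cell types was not tested. Lower in T than in MMA were Dkk1 (a bound of -3.98), Wnt9b (a bound of -3.52), Frzb (-3.31), Tcf7 (-2.75), Wnt5a (-2.03) and Rspo2 (-1.17). Lgr4 was 1.97 higher by its brightest probe and -1.29 by another, and Tcf7l2 was 1.03 by its brightest probe and 0.08 to 0.45 by the other 3. With normexp the differences were -2.53 for Dkk1, -2.04 for Wnt9b, -2.26 for Frzb, -1.86 for Tcf7 and -0.91 for Rspo2, the last under 2-fold, as it was with the mean over probes (-0.98).

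**Figure D4:**
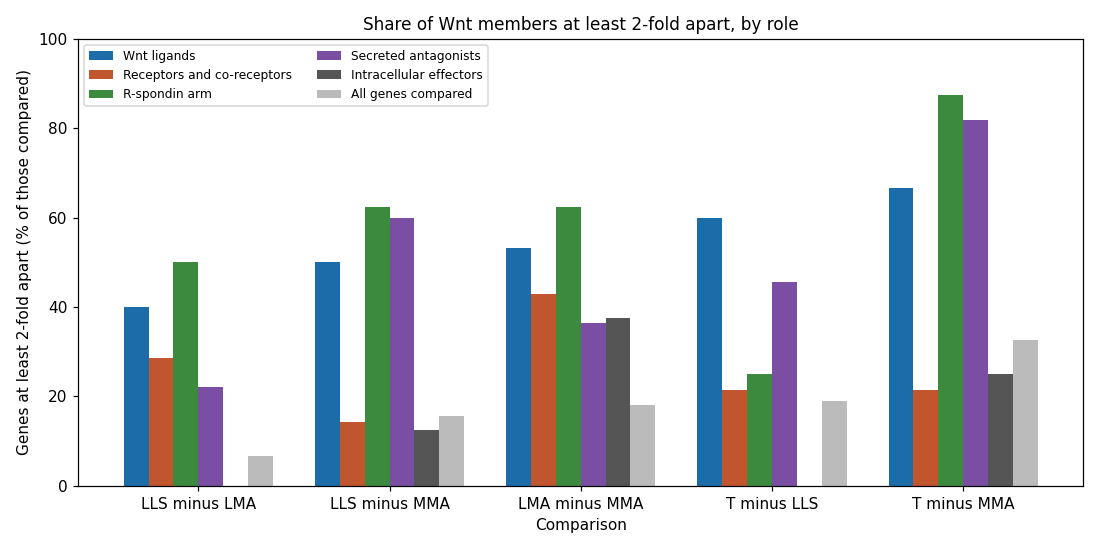
Percent of compared genes at least 2-fold apart in either direction (bars from 0), for each role of the Wnt members and for all genes, in the 5 comparisons. In T minus MMA the R-spondin arm stands at 87.5% and the antagonists at 81.8%, against 32.6% of all genes, while receptors stand at 21.4%.

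The series design names ROKU, a method that finds genes whose level in 1 tissue is an outlier. By its outlier step, and a gap of 2-fold or more to the next tissue, 27 of 57 detected members (47.4%) were specific to 1 tissue, against 19.7% of 17554 genes. Set apart as high were 8 members in T (14.0%, against 8.4% of genes), 5 in LMA (8.77%, against 0.644%), 1 in MMA (1.75%, against 2.57%) and 0 in LLS (against 0.342%). Set apart as low were 8 in MMA (14.0%, against 4.22%), 2 in LMA (3.51%, against 0.866%), 2 in T (3.51%, against 2.55%) and 1 in LLS (1.75%, against 0.0968%). The 5 high in LMA were Rspo2 (4.6-fold from the nearest), Wnt7a (at least 5.58-fold), Ror1 (2.63-fold), Fzd1 (2.14-fold) and Fzd7 (2.05-fold). The 8 low in MMA were Wnt9a (9.80-fold), Wif1 (8.15-fold), Rspo3 (4.56-fold), Sfrp2 (3.97-fold), Wnt7b (3.89-fold), Dkk2 (3.70-fold), Rspo1 (3.66-fold) and Lgr5 (3.58-fold). Fzd6 (3.53-fold) and Wnt6 (2.14-fold) were the 2 low in LMA, and Wnt3 (2.66-fold) the 1 low in LLS.

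Other genes of the pathway, 75 in 6 lists, were compared the same way, with 6 of 71 compared higher in LLS by 2-fold or more and 1 lower, against 3.72% and 2.89% of all genes. Those higher were Sp5 (1.80), a direct target, the Dvl-binding Dact2 (1.73), the polarity cadherins Celsr1 (1.60) and Celsr2 (1.34), Sostdc1 (1.5), a secreted inhibitor of Wnt and BMP signals, and the corepressor Tle4 (1.05). Tnfrsf19, a Wnt target also called Troy, was lower in LLS (-1.06). In T minus LLS, 10 of 69 were higher and 9 lower, against 13.0% and 6.0% of all genes, and the target genes went both ways, with Cd44 (3.59), Tnfrsf19 (2.49) and Myc (1.22) higher and Sp5 (-2.36) and the cyclin gene Ccnd1 (-1.75) lower. In T minus MMA, 17 of 70 were higher and 6 lower, against 18.6% and 14.0% of all genes, led by the inhibitor Apcdd1 (4.07), with Bambi (-3.66) lowest. Beta-catenin itself (Ctnnb1) gave 9747 in MMA, 10126 in LLS and 9729.7 in LMA, with 10553 in T. Among the 19 cytoplasmic transducers, 3 were higher and 0 lower in LLS minus MMA, against 9.89% and 5.73% of all genes. In T minus LLS 1 of them was higher and 3 were lower.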

How the data were processed

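The 4 deposited scanner files hold spot intensity as Agilent Feature Extraction 10.7.1.1 wrote it, per the file headers (the submitters' processing notes list 9.5.1.1), after background subtraction, spatial and multiplicative detrending, surrogate values for dim spots, with no scaling between arrays. Probe positions in them are on mm9. A deposited value table, used as an alternative, gives linear intensity. Its 4 columns have medians of 50.49 to 51.94, share 1 maximum, and follow the scanner values (r of 0.9993 or more over probes). Its normalization is not given in the sources used here. Control and flagged spots were left out, repeated spots averaged, and 4 probes with no unflagged spot dropped. From log2 of the processed signal the 75th percentile of the array was subtracted. Genes were compared where the brightest probe was well above background on at least 1 array of the pair. With 1 array per tissue no test was run. Members, gene lists and comparisons were chosen with earlier results of these data known. Every member could be named, and all 4 signals are given for 31 members: those spanning at least 4-fold or specific to 1 tissue. Background percentages use gene names found in the RefSeq table. Counting steps were tested on simulated data. Alternatives used limma 3.58.1 in R 4.3.3 (normexp with offset 50, quantile, cyclic loess), and the rest Python 3.11.15.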

Additional observations from a re-analysis of the deposited data

How the results depend on the processing

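Members called at least 2-fold apart summed to 112 over the 5 comparisons, and with a dim value in 1 tissue the difference is only a bound. Kept as 2-fold calls were 112 without the filter and floor on dim probes, 111 with cyclic loess, 108 with quantile normalization, 108 in the deposited value table, 101 with the mean over all probes of a gene and 88 with normexp. Restricting to genes well above background on both arrays left 91, with the other 21 not compared. No call changed direction under these 7 alternatives, although Dkk4 in T minus LLS came to 0 with the mean over probes. The count of members higher in T than in LLS, 13, was 7 among genes well above background on both arrays, where fewer genes are tested. With normexp the count was 8. Normexp was run with an offset of 50 added to every signal, which by itself makes log2 differences of dim probes smaller. Among all genes the count higher in T than in LLS was 1409 with normexp, against 2172. The share of the drop that came from the offset was not tested. Every other count of members stayed within 1.5 times its main value. Members specific to 1 tissue numbered 22 to 30, against 27. The share of all genes specific to 1 tissue ran from 12.6% to 22.0%, against 19.7%. Without filter and floor the median of all genes moved by -0.11 in LLS minus MMA, -0.12 in LMA minus MMA, 0.14 in T minus LLS and 0.13 in T minus MMA. No paired analysis was possible because each tissue had 1 array, and no replicate could be left out. Precision is limited by having 4 arrays and, for dim probes, by signal over background.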

Other observations

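Wnt ligand genes that neighbour each other with 0 protein-coding genes between them in the RefSeq table did not all keep the same course. Wnt9b and Wnt3 on chromosome 11 were both lower in LLS than in LMA (-2.17 and -2.36), but in T minus LLS they were at a bound of -1.04 and at 1.41. Wnt6 and Wnt10a on chromosome 1 were at 0.38 and 3.99 in T minus LLS. Wnt3a and Wnt9a on chromosome 11 were at a bound of -1.17 and at -0.19 in LLS minus LMA, but both were higher in T minus MMA (a bound of 1.76, and 3.32). Wnt10b and Wnt1 on chromosome 15 were at a bound of 1.30 and at 0.01 in T minus LLS. The comparison shown thus differs between pairs. With normexp Wnt3a was at -0.36 in LLS minus LMA. In T minus LLS, normexp gave 0.46 for Wnt10b, -0.47 for Wnt9b, 0.60 for Wnt3 and 3.71 for Wnt10a.

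Rspo3 had a pair of probes that parted in the tongue. The brightest gave 463 in T and 809.9 in LLS, a difference of -0.81. The other gave 197 in T and 51.8 in LLS, a difference of 1.93. Both were lowest in MMA, at 102 for the brightest and 5.4, which is dim, for the other.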
